A study of Mus musculus with 3 samples.

Results

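Wide Suz12 peaks are the stretches of 1000 bp or more in the authors' list of Suz12 binding sites from mouse small intestinal crypts. The rule took every peak on chromosomes 1 to 19 whose end minus start reached that width. The members were thus chosen by their width alone, and they are 278 of the 1464 autosomal peaks (18.99%), out of 1477 peaks in all. They held 542 kb of the 1039 kb under autosomal Suz12 peaks, or 52.2%. The 1186 narrower autosomal peaks are the comparison used below.

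Polycomb repressive complex 2 (PRC2) places methyl groups on lysine 27 of histone H3. Suz12 is a core subunit that the enzyme needs, and trimethylated lysine 27 (H3K27me3) is its end product. PRC2 is known to gather at CpG-rich start sites of silent genes for transcription factors of other tissues and stages, and the mark can spread from there over longer domains.

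The 3 libraries came from crypts of C57BL/6 mice of the genotype Lgr5Gfp-CreERT2, an Lgr5 allele that drives GFP and a Cre enzyme switched on by tamoxifen. That allele is active in stem cells at the crypt base, but the chromatin was taken from isolated crypts, and the series text calls the cells wild type. Fixed chromatin was precipitated with an antibody against Suz12 (1 library) or against H3K27me3 (1 library), and 1 input library had no antibody. No treatment or time point separates these groups, and the animals' age, sex and number are not given in the sources used here. Peak lists hold no expression values, so the labelled tissue was not checked against marker genes.

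With 1 library per antibody there is no replicate spread, and no test between groups was possible. Beside shares stand their exact Clopper-Pearson 95% intervals, which hold for counting error alone and take each peak as independent of its neighbours. Read depth is unknown, because the lists hold no counts. Coordinates are mm9, counted from 1.

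Gene names at the widest peaks are the least certain information here, because no mm9 annotation was used. They were given by hand from general knowledge of these loci, with the RefSeq gene table of GRCm38, another build, in view. All 20 symbols lay on the peak's chromosome in that table, and 11 of 11 neighbouring pairs had the same order, but this is no independent check of the names. Exon, intron or distance to a start site was not assigned.

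Promoter sequences show what kind of DNA lies at the starts of genes named at the widest peaks. These 4 were chosen after their values were seen. They were matched by gene symbol to the RefSeq table of GRCm38.p6, run from 250 bases before to 50 after a start site, and read 5′ to 3′ with each CG in capitals. Their place relative to the mm9 peaks was not measured. The first 2 are of the genes named at the 2 widest peaks. Nkx2-3 is a regulator of gut mesenchyme, and Igf2bp3 is among the few genes at the 20 widest peaks that encode no transcription factor.
Sp9 (GRCm38.p6 chr2:73271676-73271975, plus strand): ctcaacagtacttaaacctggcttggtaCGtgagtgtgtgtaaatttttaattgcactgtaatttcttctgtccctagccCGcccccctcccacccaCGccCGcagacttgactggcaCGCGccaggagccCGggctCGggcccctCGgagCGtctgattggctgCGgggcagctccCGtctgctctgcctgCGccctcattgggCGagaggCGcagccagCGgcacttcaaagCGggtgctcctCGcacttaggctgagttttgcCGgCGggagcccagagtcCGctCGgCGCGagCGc
Isl2 (GRCm38.p6 chr9:55540899-55541198, plus strand): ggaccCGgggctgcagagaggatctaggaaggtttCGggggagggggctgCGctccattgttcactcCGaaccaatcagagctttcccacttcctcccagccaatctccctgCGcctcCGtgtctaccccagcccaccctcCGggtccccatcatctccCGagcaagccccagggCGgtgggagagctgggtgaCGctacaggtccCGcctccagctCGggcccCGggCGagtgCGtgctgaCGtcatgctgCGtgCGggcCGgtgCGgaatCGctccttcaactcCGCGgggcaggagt
Nkx2-3 (GRCm38.p6 chr19:43612075-43612374, plus strand): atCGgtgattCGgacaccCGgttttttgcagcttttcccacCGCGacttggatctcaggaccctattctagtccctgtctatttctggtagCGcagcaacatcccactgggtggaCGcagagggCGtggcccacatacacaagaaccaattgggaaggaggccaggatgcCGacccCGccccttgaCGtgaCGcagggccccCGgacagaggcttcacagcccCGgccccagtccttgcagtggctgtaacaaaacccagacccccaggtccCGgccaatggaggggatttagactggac
Igf2bp3 (GRCm38.p6 chr6:49214905-49215204, minus strand): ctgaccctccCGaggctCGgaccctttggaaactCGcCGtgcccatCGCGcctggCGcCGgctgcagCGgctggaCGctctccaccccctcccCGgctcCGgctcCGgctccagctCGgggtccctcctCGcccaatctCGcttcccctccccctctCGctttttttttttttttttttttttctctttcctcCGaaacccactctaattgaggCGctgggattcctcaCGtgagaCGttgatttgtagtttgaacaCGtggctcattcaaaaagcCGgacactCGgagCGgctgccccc

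The Sp9 and Igf2bp3 promoters held 25 CG pairs each, the Isl2 promoter 23 and the Nkx2-3 promoter 15. Of the 20 genes named at the widest peaks, 16 had a promoter in the table, with 19 start sites. CG reads the same on both strands, and its count ran from 2 at a start of Hmx2 to 40 at Nkx6-1, with a median of 22 against 7 over all 32851 promoters. At least 20 CG pairs, a limit set after the counts were seen, stood in 11 of the 19 (57.9%), against 26.5% of all promoters in the table. Low counts also occurred, with 7 at Tbr1 and 9 at Hoxa7. Median GC content was 60.3% against 52.7% in all promoters.

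The value deposited with each peak has no stated unit, and it is the authors' own score. Values and widths of Suz12 peaks come from the measurement that chose the members, so they are described only. Among the 278 wide peaks the median width was 1569 bp (quartiles 1203 and 2224 bp), and the widest measured 10243 bp. Widths from 1000 bp to under 1500 bp were the most common, with 121 peaks, followed by 62 under 2000 bp, 61 under 3000 bp and 34 of 3000 bp or more. Just inside the limit lay peaks of 1000, 1001 and 1005 bp, with values of 10.7, 14.4 and 11.5. Just outside it lay 3 peaks of 996 bp, with values of 14.9, 15.01 and 16.4. The limit therefore falls in a continuous run of widths.

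The wide peaks had a median value of 19.5 (quartiles 15.9 and 26.2), and the narrower ones 10.9 (9.40 and 13.5). A value of 20 or more was found in 137 wide peaks (49.3%), against 12.0% of all autosomal peaks, and 87 of the 100 highest values belonged to wide peaks. Within the wide peaks, width and value rose together only loosely (Spearman's rho 0.53 across 278 peaks of 1 library, as a description). The median value was 16.5 under 1500 bp and 31.8 at 3000 bp or more. Low values were not absent: 4 wide peaks lay below 10, the lowest being 8.42 for a peak of 1230 bp on chromosome 1 at 62752695-62753924.

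**Figure D1:**
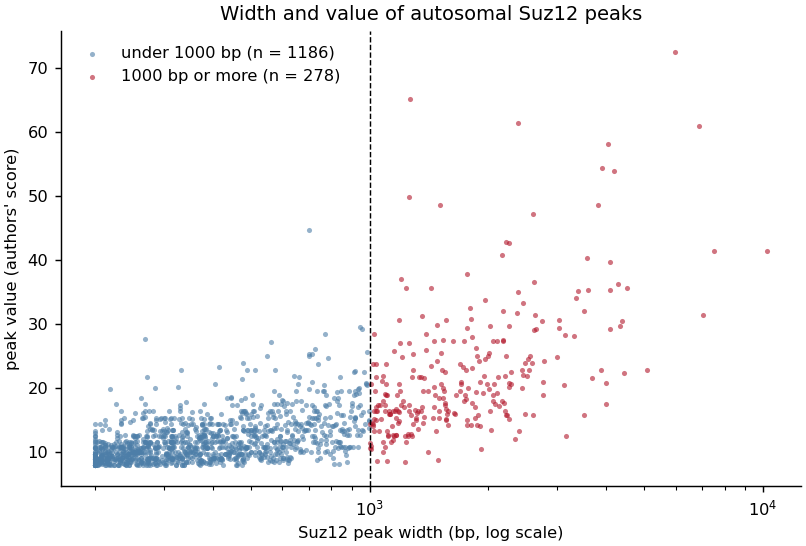
Each point is 1 autosomal Suz12 peak, with its width in bp on a log axis and the authors' value on the vertical axis; the dashed line marks 1000 bp. The 278 wide peaks reach values up to 72.5 but also fall to 8.42, within the range of the 1186 narrower peaks.

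Of the 20 widest peaks, from 3885 to 10243 bp, 18 lay at or beside genes for developmental transcription factors, by the names and roles given by hand. The others were Igf2bp3, an RNA-binding protein of fetal tissue, and Skida1, a protein with a SKI/DACH domain. Such genes were not counted at narrower Suz12 peaks, so their number here is not shown to be tied to width. The 20 peaks fell into 17 H3K27me3 domains, defined as H3K27me3 peaks joined across gaps of at most 5000 bp. Each was touched by 2 or more H3K27me3 peaks and had 79.7 to 98.1% of its length under them.

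The first 2 of the 20 lay at genes with known roles in the developing nervous system, and the Hoxa10 and Nkx2-3 peaks followed in width. The widest peak, on chromosome 2 at 73107769-73118011, lay at Sp9, a factor of limb and forebrain development. It had a value of 41.4, and 8 H3K27me3 peaks covered 86.0% of its 10243 bp, among them the highest-valued of all H3K27me3 peaks (44.1). Neither of its edges lay in an H3K27me3 peak. Next came the 7532 bp peak on chromosome 9 at 55387157-55394688, at Isl2, a LIM homeobox factor of motor neurons. It was 94.5% covered and was the only Suz12 peak of its 12.9 kb domain, with the nearest other Suz12 peak 773477 bp away. These 2 peaks had the same value, 41.4, in different surroundings: the Sp9 peak had another Suz12 peak at 133 bp, and the Isl2 peak stood alone.

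Otx1, a homeobox factor of the forebrain, carried the highest value of the whole list, 72.5, over 5993 bp of chromosome 11 at 21893201-21899193. The neighbouring genes Dlx1 and Dlx2, homeobox factors of forebrain interneurons, had a peak each on chromosome 2. The Dlx1 peak at 71366111-71371181 was the wider (5071 bp, value 22.9) and the Dlx2 peak at 71381325-71385500 the stronger (4176 bp, value 54.0). Pax6, a factor of eye, brain and endocrine cells, had a 4396 bp peak on chromosome 2 at 105513654-105518049. Its H3K27me3 coverage of 98.1% was the highest of the 20. Tbr1, a T-box factor of the cerebral cortex, had 4085 bp on chromosome 2 at 61642294-61646378. Lhx1, a LIM homeobox factor of kidney and brain, had 4096 bp on chromosome 11 at 84336255-84340350.

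Hox and Evx genes, which set position along the body axis, gave 3 of the 20. Hoxa10 lay at the 7055 bp peak on chromosome 6 at 52178371-52185425 (value 31.5) and Hoxa7 at the 4087 bp peak at 52165313-52169399 (value 39.7). Both belonged to the same 181 kb domain. Evx2, beside the Hoxd genes, had 4037 bp on chromosome 2 at 74494125-74498161, with a value of 58.1 and 81.7% coverage.

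Regulators of mesenchyme, endocrine cells and other organs made up most of the rest. Nkx2-3, a homeobox factor that patterns gut mesenchyme, had 6866 bp on chromosome 19 at 43685484-43692349, with a value of 60.9 and 95.3% coverage. Nkx6-1, a factor of pancreatic beta cells and spinal cord, had 4431 bp on chromosome 5 at 102086710-102091140. Foxd3, a forkhead factor of the neural crest, had a 4335 bp peak beside it on chromosome 4 at 99317660-99321994. Foxc2, a forkhead factor of vessels and mesoderm, had 3885 bp on chromosome 8 at 123638682-123642566.

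Hmx3 and Hmx2, neighbouring homeobox factors of the inner ear, shared a 22.5 kb domain on chromosome 7. The Hmx3 peak at 138684841-138689113 had a value of 36.2, and the Hmx2 peak at 138697844-138701742 a value of 54.3. Lbx1, a homeobox factor of limb muscle precursors, had 4002 bp on chromosome 19 at 45305775-45309776 and the lowest coverage of the 20, 79.7%, with an uncovered stretch of 734 bp.

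Igf2bp3, whose protein binds RNA in fetal tissue and tumours, had 4520 bp on chromosome 6 at 49164258-49168777, with a value of 35.7 and 83.3% coverage. Skida1 had the lowest value of the 20, 17.5, over 3984 bp of chromosome 2 at 17967332-17971315.

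**Figure D2:**
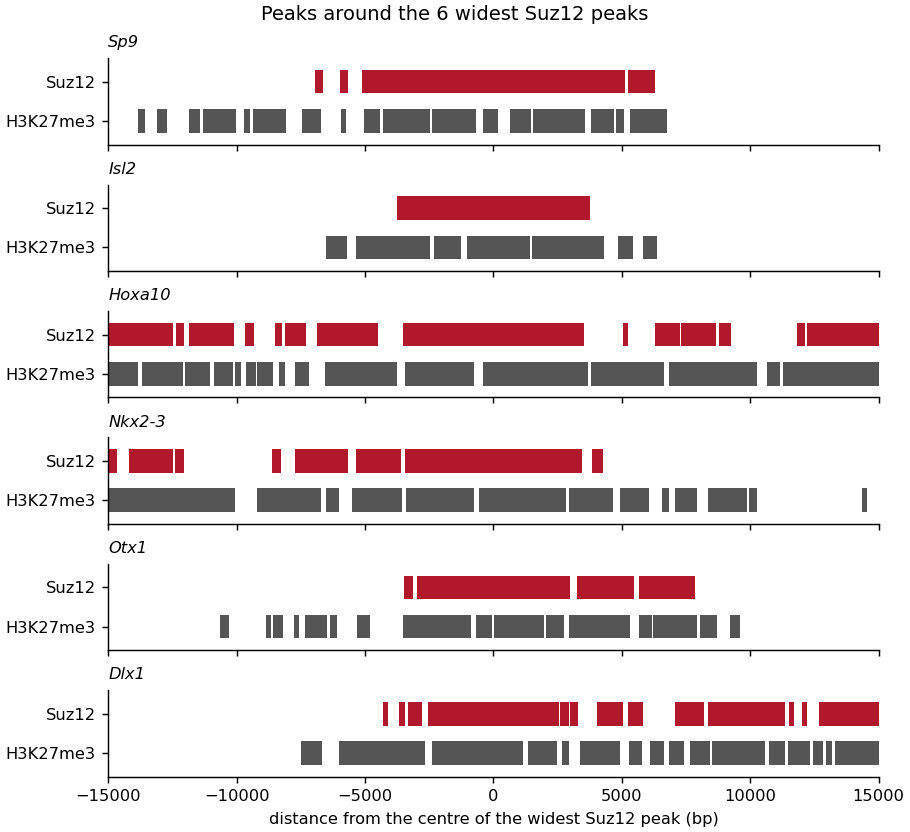
Bars are Suz12 peaks (red) and H3K27me3 peaks (grey) within 15 kb of the centre of each of the 6 widest Suz12 peaks, drawn to scale against the distance in bp. The Isl2 peak has no other Suz12 peak in view, while 4 Suz12 peaks share the domain at Sp9 and 13 that at Dlx1.

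The next comparison asked whether the mark lies on the wide peaks. H3K27me3 overlapped 277 of the 278 by at least 1 bp, which is 99.6% (95% interval 98.0 to 99.99), against 97.1% of all autosomal Suz12 peaks. In the narrower peaks the share was 96.5% (95.3 to 97.5). At least 50% of the length was covered in 276 wide peaks (99.3%), against 93.8% of all. The median wide peak was 95.8% covered (quartiles 89.2 and 100%). Wide peaks thus nearly all carried the mark, at a share near that of the whole list.

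A single wide peak had no H3K27me3. It spanned 2771 bp at chr17:39980716-39983486, with a value of 24.2, another Suz12 peak at 55 bp and the nearest H3K27me3 peak 2535869 bp off. By general knowledge of mm9 this is the place of Rn45s, a copy of the repeated ribosomal RNA gene, a name given after the values were seen. The wide peak with the least coverage among the others lay at chr3:30408110-30410713, where 3 H3K27me3 peaks covered 42.3% of 2604 bp. Following it were chr2:74543888-74545235 (53.1%), chr14:62306076-62307856 (53.3%), chr5:140024591-140026879 (57.4%) and chr4:88922590-88923589 (58.2%).

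Complete cover was less common in wide peaks than in narrower ones. Of the 278, 100 (36.0%, interval 30.3 to 41.9) lay wholly within a single H3K27me3 peak, against 63.6% of all autosomal peaks and 70.1% (67.4 to 72.7) of the narrower. In the 34 peaks of 3000 bp or more, 3 did. Instead, 108 wide peaks (38.8%, 33.1 to 44.9) were touched by 2 or more H3K27me3 peaks, against 12.1% of all, and 30 of the 34 widest were. A longer peak can touch more H3K27me3 peaks, and is less easily contained in one, by its length alone, and the part of length in these counts was not tested. The interruptions were short: in those 108, the widest uncovered stretch between covered parts had a median of 157.5 bp (quartiles 96.75 and 267.5 bp) and reached 1406 bp at most.

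By sequence, the cover showed no steady trend with width. H3K27me3 peaks contained 91.5% of the bases in wide peaks and 89.8% of those in narrower ones. Among the wide peaks the share was 94.0% under 1500 bp, 91.8% under 2000 bp, 89.4% under 3000 bp and 91.0% at 3000 bp or more. Among the narrower peaks it was 87.1% under 300 bp, 90.4% under 500 bp and 90.6% under 1000 bp. Along the wide peaks, coverage was lowest in the outermost 10% of the length, at 87.8% and 87.0%. It reached 94.8% on both sides of the centre and was 91.4% and 92.4% in the central parts. The narrower peaks had a like drop at their ends, to 86.4% and 87.4%.

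The edges of the wide peaks were compared with those of the mark. Of 556 edges, 434 (78.1%) lay inside an H3K27me3 peak, 216 on the lower-coordinate side and 218 on the other. Both edges did so in 167 peaks (60.1%, interval 54.1 to 65.9), against 72.3% of all autosomal peaks and 75.1% (72.6 to 77.6) of the narrower. Exactly 1 edge did in 100 (36.0%), against 23.2% of all, and neither did in 11 (3.96%), against 4.58%. An edge outside the mark was usually close to it: 108 of the 122 such edges had an H3K27me3 peak within 200 bp, and the median distance was 68.5 bp. This distance was not measured for narrower peaks, so it is not shown to be particular to wide ones.

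Where an edge lay in the mark, the H3K27me3 peak over it ran on for a median of 509.5 bp beyond the Suz12 peak (quartiles 138 and 1167 bp). The narrower peaks gave 609 bp (222 and 1234 bp), and the order-statistic 95% intervals of the medians, 409 to 594 and 562 to 644 bp, overlapped. The median was 504.5 bp on the lower-coordinate side and 528 bp on the other. In peaks with both edges in the mark, the shorter reach had a median of 187 bp and the longer 907 bp. Reach measured to the end of a run of H3K27me3 peaks joined across gaps of up to 1000 bp was far longer, with a median of 5941 bp, because it crosses short gaps.

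Positions outside the wide peaks were compared at set distances from the edges. At 100 bp outside an edge, 64.9% lay in H3K27me3, rising to 73.6% at 500 bp and 74.1% at 1 kb (interval 70.2 to 77.7). For narrower peaks the shares were 76.3% at 100 bp, 76.6% at 500 bp and 72.3% at 1 kb. At 100 bp the interval of the wide peaks (60.8 to 68.9) lay below that of the narrower (74.5 to 78.0). Farther out both fell, to 50.2 and 45.5% at 5 kb, 44.6 and 36.0% at 7.5 kb, 32.2 and 29.3% at 10 kb, and 12.2 and 15.3% at 20 kb. At 7.5 kb the interval of the wide peaks (40.4 to 48.8) lay above that of the narrower (34.0 to 37.9), but at 2, 3, 5 and 10 kb the intervals overlapped. Peaks of 500 bp to under 1000 bp had an interval of 34.0 to 41.5 at 7.5 kb, which overlapped that of the wide peaks. The share of all autosomal sequence in H3K27me3 peaks was 0.591%. With positions inside another Suz12 peak left out, the wide peaks gave 62.6% at 100 bp, 61.9% at 250 bp, 66.0% at 500 bp and 66.2% at 1 kb, so most of the rise away from the edge was gone. The narrower peaks then gave 75.1% at 100 bp and 66.0% at 1 kb. Positions near clustered peaks are not independent.

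Short breaks between neighbouring Suz12 peaks, a comparison added after the data were seen, were less covered than the peaks. At breaks of at most 500 bp next to a wide peak (223, median 194 bp), H3K27me3 covered 64.0% of the bases, against 91.5% inside the wide peaks. It covered 77.2% at 356 such breaks between narrower peaks. Breaks with full cover numbered 126 of 223 (56.5%, interval 49.7 to 63.1) and 242 of 356 (68.0%, 62.9 to 72.8). Between 2 wide peaks, 18 of 40 were fully covered. No break in the Suz12 list was shorter than 51 bp. The intervals of those shares overlapped, and the difference was not tested.

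**Figure D3:**
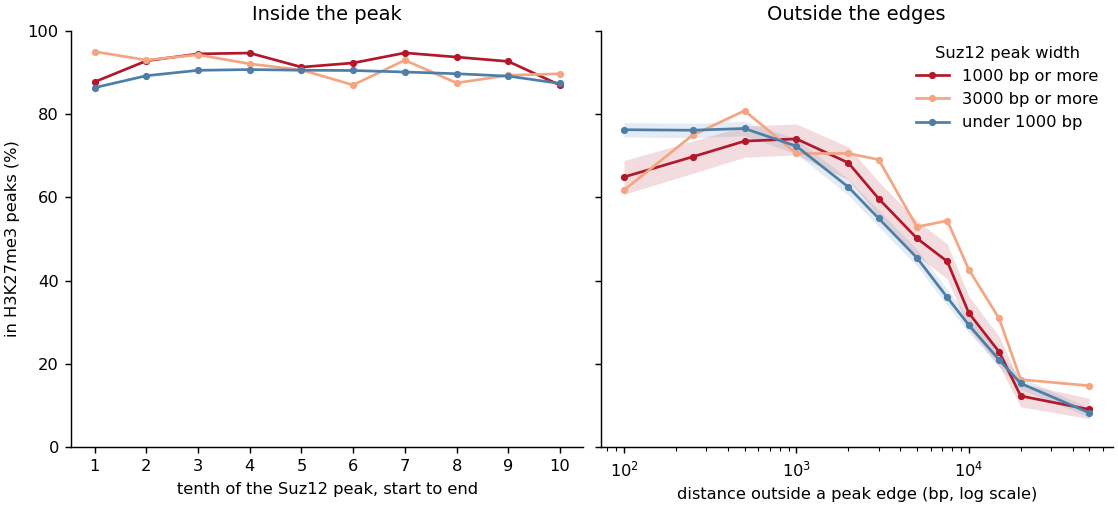
The left panel gives the mean share of each 10% of a Suz12 peak's length under H3K27me3 peaks; the right panel gives the share of positions in H3K27me3 at set distances outside both edges (log axis), with 95% binomial bands for the wide (red) and narrower (blue) peaks and, without a band, a line for the 34 wide peaks of 3000 bp or more (orange). The line of the wide peaks starts at 64.9% at 100 bp, below the 76.3% of the narrower, and crosses it by 1 kb.

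Seen from the mark, 417 autosomal H3K27me3 peaks lay on a wide Suz12 peak, 1.61% of 25897, and 804 on narrower Suz12 peaks only (3.10%). Those on wide peaks had a median width of 1564 bp (quartiles 735 and 2529 bp) and a median value of 21.5. On narrower peaks the medians were 1226.5 bp (654.75 and 1943.5 bp) and 19.5, and without Suz12 367 bp and 11.1. Of the 50 widest H3K27me3 peaks, 28 lay on a wide Suz12 peak, and of the 50 with the highest value 12 did. Of the 500 widest H3K27me3 peaks 128 (25.6%) lay on a wide Suz12 peak, and of the 500 highest 109 (21.8%), so the 2 orders differed little over this longer list. A wide peak meets a wide one more easily by length alone, and that part was not tested. Suz12 value and the top H3K27me3 value on the same wide peak were weakly related (Spearman's rho 0.26 across 277 peaks, as a description).

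Wide peaks lay in long H3K27me3 domains. At a joining gap of 5000 bp, 277 wide peaks fell into 155 of the 7624 autosomal domains (2.03%). These 155 domains had a median length of 23434 bp (quartiles 15110 and 34600.5 bp) and a median of 16 H3K27me3 peaks. The 305 domains with narrower Suz12 peaks only had a median of 11322 bp (6550 and 17520 bp) and 8 H3K27me3 peaks, and the 7164 without Suz12 1093 bp and 2. Domains with a wide peak held a median of 4 Suz12 peaks and those with narrower only 1. A domain with more Suz12 peaks has more chances to hold a wide one. Taken per Suz12 peak, the median domain length was 26125 bp for wide (95% interval 24327 to 33087) and 21632 bp for narrower peaks (20362 to 23591). For peaks of 500 bp to under 1000 bp it was 24656 bp (20861 to 28011), and this interval overlapped that of the wide peaks. At a joining gap of 1000 bp the median length with a wide peak was 12714 bp. The highest H3K27me3 value in a domain had a median of 28.95 with a wide peak, 25.4 with narrower peaks only and 11.7 without Suz12.

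The share of domains with a wide peak grew with length. It was 0.0509% (3 of 5892) under 5 kb, 1.62% (15 of 924) from 5 to 10 kb and 7.88% (42 of 533) from 10 to 20 kb. From 20 to 50 kb it was 31.3% (77 of 246, interval 25.6 to 37.5), and from 50 kb upward 62.1% (18 of 29, interval 42.3 to 79.3). The share of domains with narrower Suz12 peaks only also grew with length up to 50 kb. These were 40 of 5892 under 5 kb, 91 of 924 from 5 to 10 kb and 112 of 533 from 10 to 20 kb. In each of those classes they outnumbered the domains with a wide peak. They made up 23.6% from 20 to 50 kb and 13.8% from 50 kb upward. Growth with length up to 50 kb was thus not particular to wide peaks. Of the wide peaks, 197 (70.9%, interval 65.1 to 76.1) lay in a domain of at least 20 kb, against 56.9% of all autosomal Suz12 peaks. For peaks of 500 bp to under 1000 bp the share was 56.8% (51.2 to 62.1). Longer domains offer more room for any peak, and this was not adjusted for.

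Width of the Suz12 peak and length of its domain were almost unrelated within the wide peaks (Spearman's rho 0.08 across 277 peaks, as a description). A wide peak took up a median of 6.25% of its domain. Its nearer domain end lay a median of 8138 bp away, against 6557.5 bp for narrower peaks. Within 1000 bp of an end lay 14 wide peaks (5.05%), a count that was not made for narrower peaks.

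**Figure D4:**
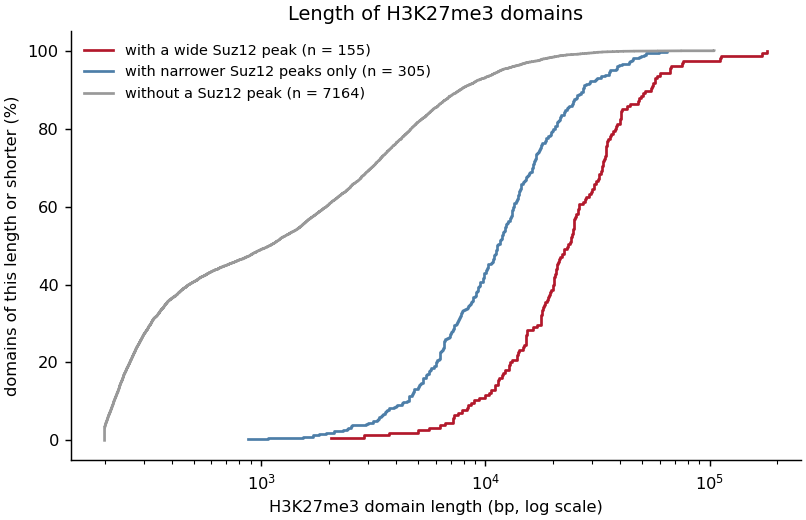
Lines give the share of H3K27me3 domains that are at most as long as the value on the horizontal axis (bp, log scale). The line for the 155 domains with a wide Suz12 peak (median 23434 bp) lies to the right of that for the 305 with narrower peaks only (11322 bp) and the 7164 without Suz12 (1093 bp).

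Within their domains, wide peaks often sat on the top H3K27me3 peak. The H3K27me3 peak with the highest value lay on a wide Suz12 peak in 99 of the 155 domains (63.9%, interval 55.8 to 71.4), although 13.3% of the H3K27me3 peaks in these domains did. For the widest H3K27me3 peak the number was 113 (72.9%, 65.2 to 79.7). In domains with narrower Suz12 peaks only, the widest H3K27me3 peak lay on Suz12 in 224 of 305 (73.4%, 68.1 to 78.3), a like share. On any Suz12 peak, wide or narrower, it lay in 140 of the 155 (90.3%, 84.5 to 94.5). A longer H3K27me3 peak meets Suz12 more easily by length alone, and that part was not tested. Counting any Suz12 peak, wide or narrower, the top peak by value lay on Suz12 in 128 of the 155 (82.6%, 75.7 to 88.2), with 24.6% of their H3K27me3 peaks on Suz12. In domains with narrower peaks only it did so in 215 of 305 (70.5%, 65.0 to 75.6), with 14.1% of their H3K27me3 peaks on Suz12. Suz12 thus lay on more of the H3K27me3 peaks in the first class as well, and the difference between the classes was not tested.

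Most domains held few wide peaks. A single one was found in 97 domains, 2 in 26, 3 in 19 and 4 in 9. The domain with the most, 18, was the Hoxa cluster on chromosome 6 at 52094999-52276321, where wide peaks took up 22.7% of 181 kb. Domains with 6 each lay on chromosome 2 at 74481475-74592764 (the Hoxd cluster) and on chromosome 5 at 139981574-140048932 (by general knowledge Uncx, a homeobox factor of the axial skeleton). The domain of Dlx1 and Dlx2, on chromosome 2 at 71361159-71395828, held 5, which filled 41.4% of its 34.7 kb. The domain of Nkx2-3, on chromosome 19 at 43636648-43703454, held 4 in 66.8 kb.

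The domains richest in Suz12, compared after the data were seen, were led by the Hox clusters, and are described here by how much of their Suz12 fell into wide peaks. At Hoxa, 18 of 51 Suz12 peaks were wide (35.3%, interval 22.4 to 49.9), and at Hoxd 6 of 36 (16.7%, 6.37 to 32.8). The Hoxb domain, on chromosome 11 at 96106630-96218807, had 3 of 23 (13.0%), and the Hoxc domain, on chromosome 15 at 102733526-102905392, 1 of 25 (4%, 0.101 to 20.4). A domain at chr14:122836734-122893973 also had 3 of 23. Near the Hoxb domain, a separate domain of 56.9 kb, with wide peaks between 96038113 and 96066630, had 3 wide of 16 Suz12 peaks. It was counted apart, and whether the domains span whole clusters was not measured. The Hoxc domain was 172 kb long and held 122 H3K27me3 peaks, against 115 in the 181 kb of Hoxa. Its widest Suz12 peak measured 1275 bp and that of Hoxa 7055 bp. The width of these peaks chose the members, so these shares are a description only.

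Wide peaks had close neighbours. Another Suz12 peak lay within 1000 bp of 230 (82.7%, interval 77.8 to 87.0), against 73.5% of all autosomal peaks. Within 5000 bp the number was 258 (92.8%, 89.1 to 95.6), against 84.6%, and for narrower peaks it was 82.7% (80.4 to 84.8). The median distance to the nearest other Suz12 peak was 224.5 bp for wide and 341 bp for narrower peaks. Peaks of 500 bp to under 1000 bp, the nearest in width, gave 248 bp, with 78.4% (73.6 to 82.7) having a neighbour within 1000 bp and 86.5% (82.3 to 90.0) within 5000 bp. Their intervals overlapped those of the wide peaks, so close neighbours were not shown to be particular to the wide class. Peaks separated by at most 200 bp, once joined, gave 327 wide peaks, of which 82.6% had a neighbour within 5000 bp.

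Another wide peak lay within 5000 bp of 151 (54.3%) and within 20 kb of 178 (64.0%). Joined across 20 kb, the wide peaks formed 160 groups: 100 singles, 27 pairs and 33 groups of 3 or more, which held 124 wide peaks. Beyond 20 kb the number hardly grew, reaching 184 at 100 kb. Neighbouring wide peaks were thus either close or far apart, with quartiles of 439 and 971708 bp.

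A small set stood alone. No other Suz12 peak lay within 100 kb of 10 wide peaks (3.6%, interval 1.74 to 6.52), against 10.7% of all. In 13 cases (4.68%) the wide peak was the only Suz12 peak of its domain, against 12.3% of all. The most isolated lay on chromosome 4 at 107107367-107108730, 2.54 Mb from the next. It measured 1364 bp, had a value of 19.6 and was fully covered by an H3K27me3 peak with a value of 39.6. The next in order were chr7:26099820-26101277 (2.02 Mb) and chr10:44246578-44248657 (1.35 Mb).

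The 155 domains with a wide peak also held narrower Suz12 peaks. They contained 880 of the 1464 autosomal Suz12 peaks (60.1%). These were the 277 wide peaks that define the domains and 603 of the 1186 narrower ones (50.8%). The 305 domains with narrower peaks only held 573. H3K27me3 peaks numbered 3142 in the 155 domains and 3186 in the 305, so narrower Suz12 peaks were not shown to be concentrated in the 155. The 4.50 Mb of the 155 domains made up 14.7% of the length of all domains, of which 7164 held no Suz12.

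The wide peaks were unevenly spread over the chromosomes. Chromosome 2 held 37, chromosomes 6 and 11 held 30 each and chromosome 4 held 24, together 121 (43.5%) on 24.6% of the autosomal length. Of all 1464 autosomal Suz12 peaks, these chromosomes held 201, 130, 135 and 88 in that order. The uneven spread was thus not shown to be particular to the wide peaks. Density of wide peaks was 0.246 per Mb on chromosome 11, 0.228 on chromosome 19, 0.204 on chromosome 2 and 0.201 on chromosome 6, against 0.112 over all autosomes. It was lowest on chromosome 17, with 2 wide peaks (0.0210 per Mb), and chromosome 15, with 3 (0.0290 per Mb). Counts of wide and of all Suz12 peaks went together over the 19 autosomes (Spearman's rho 0.93), as they must in part because the first is contained in the second. With H3K27me3 peak counts the rho was 0.61.

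As a share of a chromosome's Suz12 peaks, wide peaks made up 18.99% overall. Chromosome 15 was lower, with 3 of 55 (5.45%, interval 1.14 to 15.1). Chromosome 18 had the highest share, 6 of 14 (42.9%, 17.7 to 71.1), from few peaks. Chromosome 4 had 24 of 88 (27.3%, 18.3 to 37.8) and chromosome 6 had 30 of 130 (23.1%, 16.1 to 31.3).

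**Figure D5:**
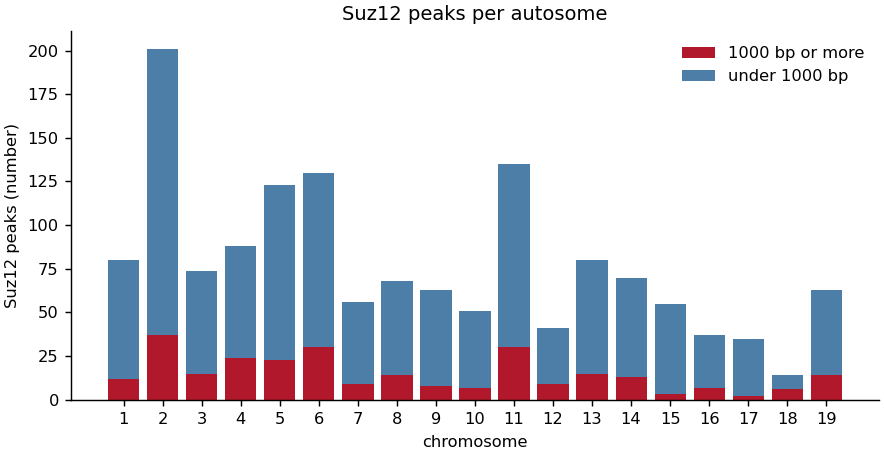
Bars give the number of Suz12 peaks on each autosome, with peaks of 1000 bp or more in red and narrower ones in blue. Chromosome 2 has the most wide peaks (37 of 201), and chromosomes 15 and 17 the fewest (3 of 55 and 2 of 35).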

How the data were processed

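Chromatin immunoprecipitation and sequencing gave 1 Suz12, 1 H3K27me3 and 1 input library, and no file of the input was used here. Bowtie, MACS2 and mm9 are listed per the submitters' processing notes, without versions or roles, and the use of the input in peak calling was not stated there. The authors deposited a peak list per antibody with a score for each peak, whose scale is not stated; it starts at 8 in both lists, so weaker sites are in no count. The score was used only to describe and rank peaks within a list.

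Wide peaks were taken by end minus start, and overlap needed at least 1 bp. Work was done in Python 3.11.15 with numpy 2.4.6, pandas 2.3.3, scipy 1.17.1 and matplotlib 3.10.9; mm9 chromosome lengths came from GenomeInfoDb 1.38.1. On 400 simulated peaks, 300 of them placed on the mark, the functions recovered all 300 overlaps and every coverage and reach. Regions named are the 20 widest peaks, the 3 on each side of the width limit, those without or with the least H3K27me3, the 5 domains with most wide peaks and the 3 most isolated peaks; the 5 domains richest in Suz12 and a few single peaks were added. Gene names were given by hand with GRCm38 gene positions in view, not by start sites in mm9. Comparisons with gene lists had been planned and were not run, because no mm9 annotation was used here. Alternatives concerned the width, joining gap, distance, overlap and upper 50% of each list. The members and lists were chosen with earlier results of these data known.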

Additional observations from a re-analysis of the deposited data

How the results depend on the processing

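No paired analysis was possible because each antibody has 1 library, and no replicate could be left out. A limit of 2000 bp left 95 wide peaks in 69 domains, with a median coverage of 94.1%. The share of positions 1 kb outside an edge in H3K27me3 was 68.3% when only the upper 50% of the H3K27me3 list was kept and 66.2% with positions inside another Suz12 peak left out. The median reach was 5941 bp over H3K27me3 runs joined across 1000 bp. Median domain length was 12714 bp at a gap of 1000 bp, 26125 bp at 10000 bp and 17817 bp with the upper 50% of H3K27me3 peaks. The share with a neighbour was 88.5% within 2000 bp and 82.6% after joining Suz12 peaks across 200 bp. Of 46 alternatives, 35 stayed within the 95% interval of the reported value or, for counts, within 1.5 times it, and 11 did not. The 6 that left out the wide peaks of the 5 domains richest in them were chosen after seeing the data, and all 6 stayed within. Of those domains, 1 was taken from 9 tied at 4 wide peaks. The value minimum and the unknown depth limit what can be said of weaker sites.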

Other observations

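Bmi1, which encodes a subunit of the other main Polycomb complex, lies by general knowledge of mm9 at 1 wide peak in an unusually short domain. This peak was chosen after its values were seen. On chromosome 2 at 18599304-18600567 (mm9), it had the second-highest value of the Suz12 list, 65.1, with a width of only 1264 bp. It was the only Suz12 peak of a 3.72 kb domain of 4 H3K27me3 peaks, and neither of its edges lay in the mark. The other wide peaks in domains under 5 kb had values of 17.5 and 15.5, on chromosome 10 at 44246578-44248657 and chromosome 14 at 55194608-55195983.

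The rule left out 3 Suz12 peaks of 1000 bp or more that lay off the autosomes. They were on the mitochondrial genome, measured 1051, 2481 and 1160 bp, had values of 26.7, 19.5 and 12.5, and overlapped no H3K27me3 peak. Their relation to background could not be assessed, since no file of the input was used here.

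The 3 wide peaks with the lowest values, from 8.42 to 8.61, on chromosomes 1, 5 and 13 in that order, were each fully covered by 1 H3K27me3 peak. These measured 3874, 3255 and 6703 bp, with values of 29.4, 20.3 and 23.0, against a median of 25.7 (quartiles 21.4 and 28.9) for the top H3K27me3 value on a wide peak.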
